A study of Mus musculus with 4 samples.

Results

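The NF-kappaB family was examined through 10 genes, the 5 subunits Nfkb1, Nfkb2, Rel, Rela and Relb and the 5 inhibitors Nfkbia, Nfkbib, Nfkbie, Nfkbiz and Tnfaip3. They were chosen by symbol, and 15 of the 55681 non-control probes on the array carried one of these names. Of these 15 probes, 14 were well above background on all 4 arrays, and 9 of the 10 genes could be tested among 19805 genes in all. The exception was Rel.

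The cells were mouse CD4+ T cells cultured with antibodies to CD3e and CD28, TGF-beta and IL-6, a mixture that drives T helper 17 (Th17) differentiation. Both genotypes carried a red fluorescent IL-17F reporter (RFP) and were sorted as CD4+ IL-17F RFP+. Wild-type cells (WT, miR-155+/+) were hybridised to 2 arrays, as were cells lacking miR-155 (miR-155-/-, the knockout), and the design text calls these biological replicates. Nothing in the labels ties an array to an animal or culture, or gives the age and strain of the mice, so the p-values measure only how far these 4 samples spread, which may be technical in part.

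NF-kappaB proteins are dimers of subunits that share a DNA-binding Rel homology domain. IkappaB proteins hold them in the cytoplasm until a kinase complex, switched on by the antigen receptor or by cytokine receptors, marks the IkappaB for destruction. Several inhibitors are themselves induced by NF-kappaB and so close a feedback loop. In Th17 cells the atypical nuclear family member IkappaB-zeta, encoded by Nfkbiz, is known to promote expression of Il17a. The deleted microRNA, miR-155, is induced when lymphocytes are activated, and the IkappaB kinase-related gene Ikbke is among its reported targets. Its main mature strand is shown with the seed (bases 2 to 8), through which it pairs with its targets, in capitals. The sequence is RefSeq's, from chr16:84714143-84714165 of GRCm38.p6, plus strand.
mmu-miR-155-5p: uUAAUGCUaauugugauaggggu

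Values are log2 processed signals relative to the 75th percentile of each array, and differences are knockout minus wild type on that log2 scale. Between 63.5% and 69.8% of non-control spots per array were well above background, and 0 were saturated. The wild-type arrays occupied row 1 and the knockout arrays row 2 of 1 slide, so an effect of the row cannot be told apart from genotype. In both genotypes array 1 lay in slide column 2 and array 2 in column 4. The fitted detrending surface had an SD of 0.157 on knockout array 1, against 0.0498 to 0.0557 on the other arrays. On knockout array 1 the surface had been applied to only 4.11% of spots well above background, against 100% on the other arrays. In the corner blocks at the right edge of the arrays, 157 of 3031 probes were over 8-fold dimmer on knockout array 1 than on each other array, against 70 on wild-type array 2 and 0 on the other arrays. miR-155 and its host transcript were not analysed here, so the deletion was not checked on the arrays.

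Across the family, Nfkb1 was higher and Relb, Nfkbie and Nfkbiz were lower in the knockout cells at an unadjusted p under 0.05, while the intervals of Nfkb2, Rela, Nfkbia, Nfkbib and Tnfaip3 included 0. By limma with Benjamini-Hochberg adjustment, 0 of the 9 tested genes passed 0.05, with adjusted p from 0.330 to 0.926, as did 0 of all 19804 genes with a p (0%). At the unadjusted threshold, 1 of 9 was higher, against 7.18% of all genes, and 3 of 9 were lower, against 4.15%. With each array shifted by its median instead, 0 of 9 were higher, against 3.77% of all genes, and 5 of 9 lower, against 11.6%. Nfkb1 then had an unadjusted p of 0.0660, and Rela (0.0394) and Nfkbia (0.0365) joined the lower ones. The groups did not overlap for 7 of the 9 genes, against 47.7% of all genes. Of the 9, 6 had a difference below 0, against 47.8% of all genes. The median difference of the 9 was -0.19, against 0.014 over all genes.

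**Figure D1:**
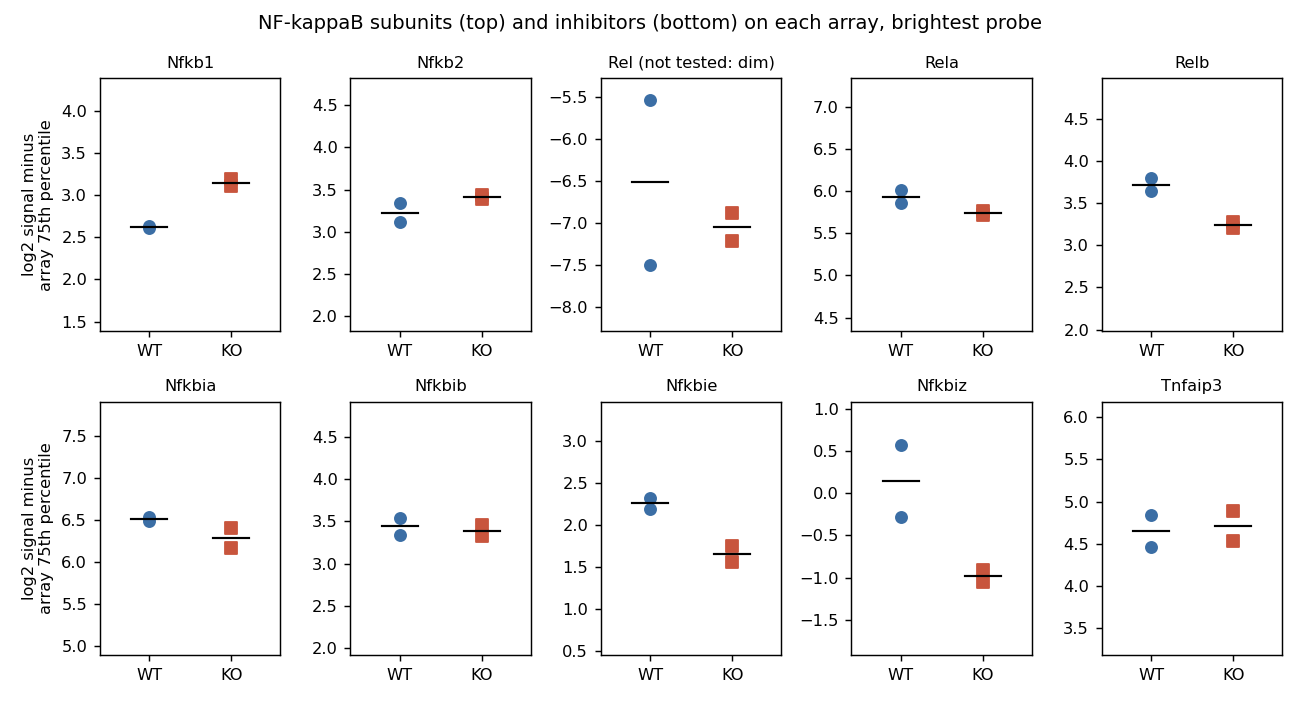
Log2 signal minus the array's 75th percentile for the brightest probe of each gene, with wild-type (WT, circles) and miR-155 knockout (KO, squares) arrays as points, n = 2 each, and group means as lines. Every panel spans the same number of log2 units. The knockout points lie above both wild-type points for Nfkb1 and Nfkb2. They lie below both for Rela, Relb, Nfkbia, Nfkbie and Nfkbiz, and the points of Tnfaip3 and Nfkbib interleave.

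Among the subunits, Nfkb1 encodes p105, the precursor of p50, which lacks a transactivation domain of its own. Its brighter probe gave 2.64 and 2.61 on the wild-type arrays and 3.11 and 3.19 on the knockout arrays, so that both knockout values lay above both wild-type values. The difference was 0.53 ± 0.12 (SE), a 1.44-fold higher signal with a 95% interval of 0.21 to 0.85, an unadjusted p of 0.00961 and a limma adjusted p of 0.330. A second probe, which was printed at 2 spots, did not show it. It gave 1.34 and 1.57 in wild type and 1.34 and 1.35 in the knockout. Its difference was -0.11 ± 0.14 (SE), with an interval of -0.48 to 0.27. With the probes averaged, the difference of Nfkb1 was 0.21 with an unadjusted p of 0.148. Both probes are assigned to the same RefSeq transcript on the minus strand of mm9 chromosome 3, the brighter at chr3:135254550-135254609 and the other nearer the end of the gene at chr3:135247621-135247680. No exon annotation of mm9 was used here. The brighter probe is shown because the higher Nfkb1 value rests on it alone.
Nfkb1 brighter probe: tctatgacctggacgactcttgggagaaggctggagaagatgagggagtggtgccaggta

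Relb encodes RelB, the subunit that pairs mainly with p52 in the non-canonical pathway. Its brightest probe gave 3.64 and 3.80 in wild type and 3.27 and 3.21 in the knockout, with no overlap. The difference was -0.48 ± 0.13 (SE), an interval of -0.82 to -0.13 and a 1.39-fold lower signal, with an unadjusted p of 0.0180 and a limma adjusted p of 0.357. A second probe, which shares 9 bases with the first, gave 2.86 and 2.96 against 2.31 and 2.39, a difference of -0.56 ± 0.12 (SE). These probes, at chr7:20191722-20191781 and chr7:20191773-20191832 of mm9, therefore sample nearly adjacent stretches of the transcript. The remaining probe at chr7:20203058-20203117, which the files assign to an Ensembl transcript only, was far dimmer and did not share the difference, with -1.56 and -1.47 in wild type and -1.23 and -1.47 in the knockout (0.16 ± 0.15 SE). With the 3 probes averaged, the difference of Relb was -0.29 with an unadjusted p of 0.0747.

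The other subunits differed less. Nfkb2 encodes p100, the precursor of p52. It was at 3.11 and 3.34 in wild type and at 3.39 and 3.43 in the knockout, which did not overlap, and the difference of 0.18 ± 0.14 (SE) had an interval of -0.20 to 0.57. With 1 array left out it ran from 0.068 (without wild-type array 1) to 0.30 (without wild-type array 2). Rela, which encodes the main transactivating subunit p65, was at 5.85 and 6.01 against 5.77 and 5.72. Its difference of -0.19 ± 0.13 (SE) had an interval of -0.54 to 0.15 and ran from -0.27 to -0.11 with 1 array left out. The intervals of both genes include 0 and also differences of the size seen for Relb or Nfkb1. Rel, which encodes c-Rel, the subunit most tied to lymphocytes, was measured by 1 probe at chr11:23641729-23641743. It was well above background on wild-type array 1 only, with values of -5.54 and -7.50 in wild type and -6.89 and -7.21 in the knockout, so no difference is given for it. The stretch listed for this probe is shorter than that of every other probe of the family. Whether its low signal reflects the probe or the transcript was not tested.

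The classical inhibitors were led by Nfkbia, which encodes IkappaB-alpha, the inhibitor that NF-kappaB induces most rapidly. Its values were 6.49 and 6.54 in wild type and 6.41 and 6.16 in the knockout, both lower. The difference of -0.23 ± 0.14 (SE) had an interval of -0.62 to 0.16 and an unadjusted p of 0.182. With 1 array left out it ran from -0.35 to -0.11. Nfkbie encodes IkappaB-epsilon, a slower inhibitor of p65 and c-Rel dimers. It was at 2.19 and 2.33 in wild type and at 1.75 and 1.57 in the knockout, again without overlap. Its difference of -0.60 ± 0.14 (SE) was a 1.51-fold lower signal, with an interval of -0.98 to -0.22, an unadjusted p of 0.0118 and a limma adjusted p of 0.334. The probe lay at chr17:45700000-45700059 of mm9.

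Nfkbib encodes IkappaB-beta and had 3 tested probes. The brightest gave 3.34 and 3.54 in wild type and 3.45 and 3.32 in the knockout, and these overlapped (-0.05 ± 0.14 SE, interval -0.43 to 0.33). The second differed by 0.18 ± 0.25 (SE). The dimmest lay in a corner block and differed by -0.94 ± 0.32 (SE), with -2.83 on knockout array 1 and -1.98 on knockout array 2 against -1.53 and -1.39 in wild type. The part of the corner block in that value was not tested. Tnfaip3 encodes A20, a ubiquitin-editing enzyme that terminates signalling upstream of the kinases. It was at 4.84 and 4.47 in wild type and at 4.89 and 4.53 in the knockout, so that the replicates of each genotype were farther apart than the genotypes (0.05 ± 0.21 SE, interval -0.53 to 0.63). Its sign was negative with median scaling, with normexp background correction, with knockout array 1 corrected by its surface, and without wild-type array 2 or knockout array 1.

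**Figure D2:**
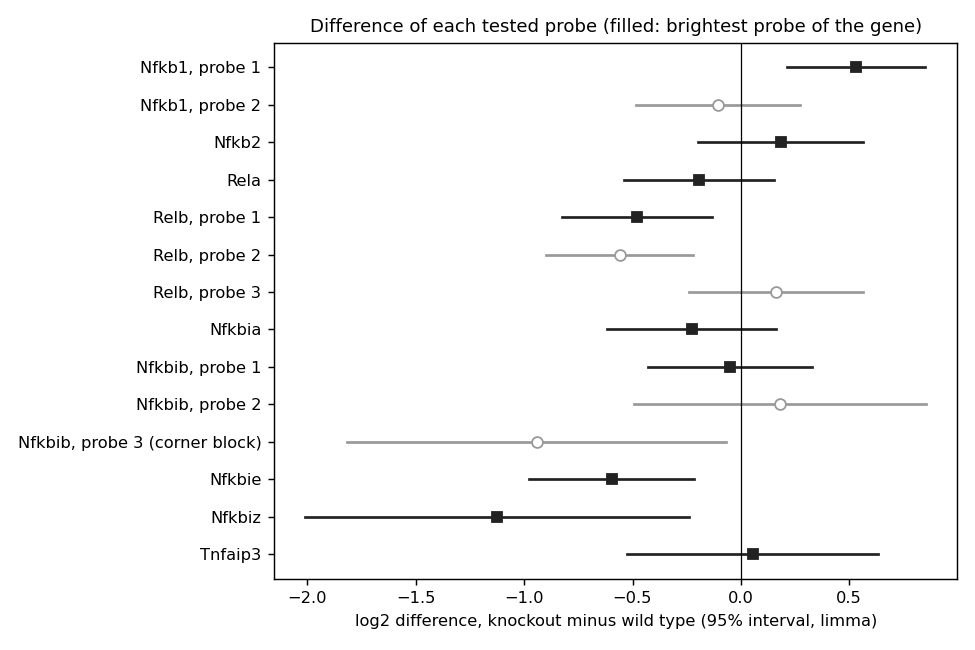
Log2 difference, knockout minus wild type, of each of the 14 tested probes with its 95% interval from limma. Filled squares are the brightest probe of a gene and open circles its other probes, numbered by brightness. The intervals of Nfkb1 probe 1, Relb probes 1 and 2, Nfkbib probe 3, Nfkbie and Nfkbiz exclude 0, and the probes of Nfkb1, Relb and Nfkbib differ in sign.

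Nfkbiz, the gene of IkappaB-zeta, had the lowest difference of the 9 genes. It was at 0.57 and -0.29 in wild type and at -1.05 and -0.91 in the knockout, so both knockout arrays were lower and wild-type array 1 stood well above wild-type array 2. The difference was -1.12 ± 0.32 (SE), a 2.18-fold lower signal with an interval of -2.01 to -0.24, an unadjusted p of 0.0241 and a limma adjusted p of 0.382. It was -0.69 without wild-type array 1 and -1.55 without wild-type array 2, and at -1.05 and -1.19 without knockout array 1 or 2 its unadjusted p was 0.0933 and 0.0701. A single probe carries this value, at chr16:55817859-55817918 on the minus strand of mm9. It is shown for that reason, and 1 of its 3 forward reading frames is free of stop codons.
Nfkbiz probe: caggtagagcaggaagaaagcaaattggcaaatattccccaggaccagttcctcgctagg

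Nfkbiz lies on the chromosome of the deleted locus. Mrpl39, which RefSeq lists next to the miR-155 host gene, has its brightest probe 28.9 Mb from that of Nfkbiz. This probe was at -1.16 ± 0.14 (SE), and the other tested probe of Mrpl39 at -0.57. Of the 43 other tested genes within 5 Mb of the Nfkbiz probe, 15 had an unadjusted p under 0.05 (34.9%, against 11.3% of all genes), 6 of them higher and 9 lower. Their median difference was -0.12. Genes nearby with lower values included Impg2 at -1.49 ± 0.19 (SE) and Dcbld2 at -1.89 ± 0.20 (SE), and genes with higher values included Alcam at 0.69 ± 0.13 (SE) and Filip1l at 0.71 ± 0.16 (SE). These 4 genes were named after their values were seen. The part of the chromosomal neighbourhood in the Nfkbiz value was not tested.

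**Figure D3:**
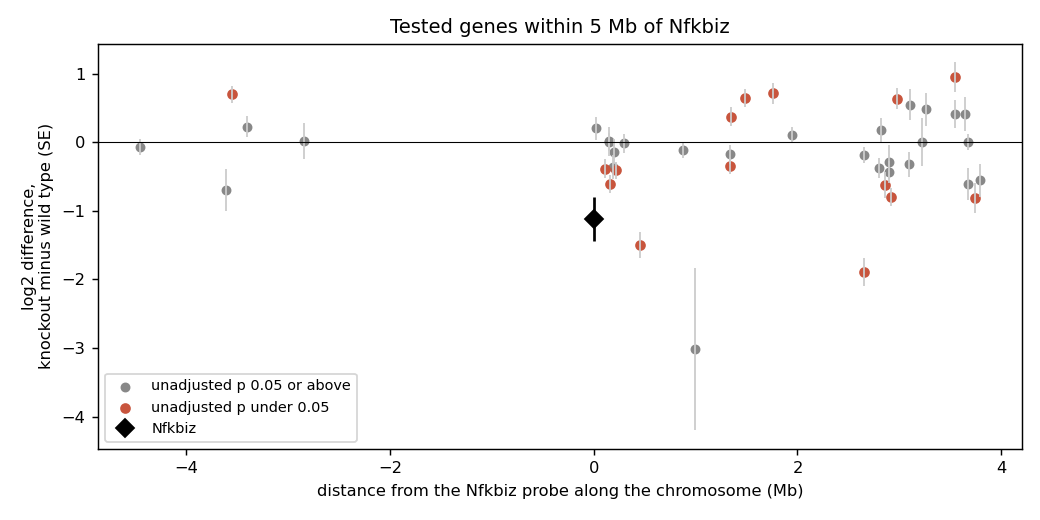
Log2 difference, knockout minus wild type, with its SE for the 43 tested genes within 5 Mb of the Nfkbiz probe, plotted against distance from that probe in Mb. Red points are the 15 genes with an unadjusted p under 0.05, which lie on both sides of 0, and the diamond is Nfkbiz at -1.12.

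The genes whose 4 values, each centred on the gene's own mean, lay closest to those of Nfkbiz were Cd109, Ebf1 and Neurl1a. Their Euclidean distances were 0.198, 0.261 and 0.300 log2 units over 4 arrays, among 14214 candidates with a gene symbol. Each had its highest value on wild-type array 1. With 4 arrays such a ranking describes these libraries only.

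The 4 genes past the unadjusted threshold did not all keep it when an array was left out. Without wild-type array 2 the unadjusted p was 0.0572 for Nfkb1, 0.103 for Relb and 0.0655 for Nfkbie, which left Nfkbiz as the 1 gene under 0.05. Without knockout array 2, Relb had an unadjusted p of 0.0650 and Nfkbiz one of 0.0701, which left Nfkb1 and Nfkbie. In each of these fits 1 genotype had a single array, assumed to vary like the others. With the replicate number as a block, Relb had an unadjusted p of 0.0530. The sign of Nfkb1, Relb, Nfkbie and Nfkbiz was the same under the 9 alternatives that could move a difference. The other 7 left the differences of the 9 genes identical by construction.

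**Figure D4:**
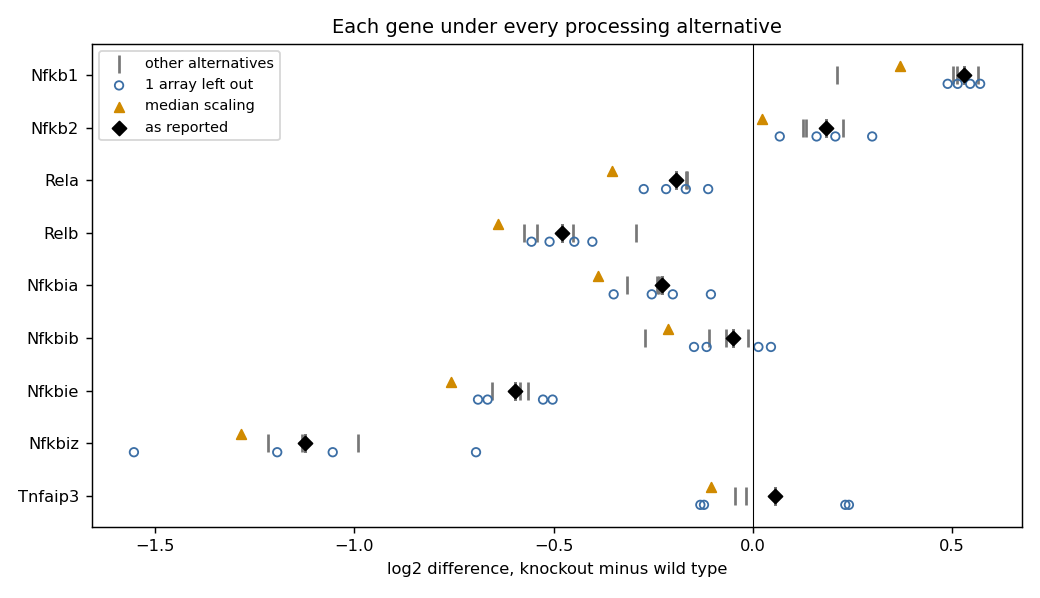
Log2 difference, knockout minus wild type, of each tested gene as reported (diamonds), with each array shifted by its median (triangles), with 1 array left out (open circles) and under the other alternatives (bars). Tnfaip3 and Nfkbib fall on both sides of 0, while Nfkbiz runs from -1.55 to -0.69 and Nfkbie from -0.76 to -0.50.

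Because the family's own promoters are known to hold NF-kappaB binding sites, RefSeq's promoter windows (GRCm38.p6, 250 bases before to 50 after a start site) were searched on both strands for the 10-letter kappaB consensus. Windows were listed for 7 of the 10 genes, and 5 of these 7, Nfkb2, Rel, Nfkbia, Nfkbie and Tnfaip3, held at least 1 match, while the windows of Rela and Nfkbib held none. No window was listed for Nfkb1, Relb or Nfkbiz, which were past the unadjusted threshold, so the count does not cover them. Over all genes with a window, 9.55% held a match. A match is a description of the letters and does not show binding in these cells. The windows of the inhibitors Nfkbia and Nfkbie and 1 of the 3 windows of the subunit Nfkb2 are shown as examples of promoters with a match, which is in capitals. They lie at chr12:55492598-55492897 (minus strand), chr17:45555450-45555749 (plus strand) and chr19:46304487-46304786 (plus strand). Relative to the start site the match begins at position -29 in Nfkbia and at -106 in Nfkbie, and the capitals of Nfkb2 hold 3 matches, of which 2 overlap.
Nfkbia: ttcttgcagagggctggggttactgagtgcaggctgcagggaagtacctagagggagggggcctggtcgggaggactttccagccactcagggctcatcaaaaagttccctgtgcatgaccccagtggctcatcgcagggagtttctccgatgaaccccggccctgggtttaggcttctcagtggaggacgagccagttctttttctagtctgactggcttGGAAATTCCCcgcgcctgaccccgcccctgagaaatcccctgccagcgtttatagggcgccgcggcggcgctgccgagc
Nfkbie: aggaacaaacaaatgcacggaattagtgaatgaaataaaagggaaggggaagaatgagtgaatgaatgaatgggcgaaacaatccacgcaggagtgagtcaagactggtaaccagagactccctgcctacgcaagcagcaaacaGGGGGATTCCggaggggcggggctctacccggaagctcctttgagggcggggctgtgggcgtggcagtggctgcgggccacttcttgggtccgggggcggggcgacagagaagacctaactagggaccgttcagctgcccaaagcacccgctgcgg
Nfkb2: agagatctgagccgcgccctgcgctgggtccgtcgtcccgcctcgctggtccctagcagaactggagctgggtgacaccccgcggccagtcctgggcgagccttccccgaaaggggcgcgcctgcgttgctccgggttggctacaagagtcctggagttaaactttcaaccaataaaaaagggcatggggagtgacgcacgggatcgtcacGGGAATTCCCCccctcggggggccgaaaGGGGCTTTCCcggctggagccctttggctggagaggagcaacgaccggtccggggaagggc

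Upstream of the subunits, 0 of 31 tested genes of the kinases and adaptors passed limma's adjusted p of 0.05, 3 were higher and 0 lower at the unadjusted threshold (against 7.18% and 4.15% of all genes), and the median was 0.05. The 3 were Ikbke, Birc3 and Tab2. Ikbke encodes IKK-epsilon, a kinase related to the IkappaB kinases, and was at 1.35 and 1.31 in wild type and at 1.77 and 1.96 in the knockout (0.53 ± 0.13 SE, limma adjusted p of 0.341). Birc3, the gene of the ubiquitin ligase cIAP2, was higher by 0.48 ± 0.16 (SE), with its other probe at 0.23. Tab2, an adaptor of the kinase TAK1, was higher by 0.34 ± 0.12 (SE). For the subunits of the IkappaB kinase complex itself the genotypes overlapped. Chuk, the gene of IKK-alpha, was at 0.17 ± 0.20 (SE). Ikbkb, the gene of IKK-beta, was at -0.01 ± 0.16 (SE), and Ikbkg, the gene of the scaffold NEMO, at -0.23 ± 0.17 (SE).

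In the arm that links the antigen receptor to NF-kappaB, 0 of 14 genes passed adjustment, 0 were higher (7.18% of all genes) and 2 lower (4.15%) at the unadjusted threshold, and the median was -0.13. Bcl10, the gene of an adaptor that works with the protease MALT1 in activated lymphocytes, was one of the lower genes. It was at 2.39 and 2.24 in wild type and at 1.85 and 1.79 in the knockout (-0.49 ± 0.13 SE, limma adjusted p of 0.350). Malt1 was at 5.56 and 5.63 against 5.41 and 5.46 (-0.16 ± 0.12 SE), which did not overlap. Both genes thus had both knockout values below both wild-type values, as 22.5% of all genes did.

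Further IkappaB proteins and feedback regulators had 2 higher and 1 lower at the unadjusted threshold among 25 tested genes, near the 7.18% and 4.15% of all genes. After adjustment 0 passed, and the median was -0.08. Zc3h12a, which encodes Regnase-1, an RNase that degrades the mRNAs of inflammatory genes including Nfkbiz, was at 0.08 and 0.21 in wild type and at -0.38 and -0.47 in the knockout (-0.58 ± 0.12 SE). N4bp1, an inhibitor of NF-kappaB signalling, was higher by 0.70 ± 0.13 (SE), and Tnip3, the gene of an A20-binding protein, by 0.66 ± 0.17 (SE). The atypical nuclear IkappaB genes related to Nfkbiz showed little difference, with Bcl3 at 0.05 ± 0.12 (SE) and Nfkbid at -0.02 ± 0.23 (SE). Their intervals were -0.29 to 0.39 for Bcl3 and -0.65 to 0.62 for Nfkbid, against -2.01 to -0.24 for Nfkbiz.

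Among receptors that signal to NF-kappaB, 3 of 21 tested genes were higher (7.18% of all genes) and 3 lower (4.15%) at the unadjusted threshold, 0 after adjustment, with a median of -0.14. Ltbr, the lymphotoxin beta receptor gene, was at -2.61 and -2.99 in wild type and at -1.17 and -1.12 in the knockout. The difference was 1.65 ± 0.18 (SE), with a limma adjusted p of 0.267. Tnfrsf8, which encodes CD30, was higher by 0.87 ± 0.22 (SE) and Cd40, a receptor best known from antigen-presenting cells, by 0.93 ± 0.25 (SE). Cd27, a costimulatory receptor, was lower by a difference of -0.49 ± 0.12 (SE) and Il1r1, the IL-1 receptor, by one of -0.50 ± 0.13 (SE). Tlr2, measured inside a corner block, was at -0.44 ± 0.14 (SE).

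Genes known to be induced by NF-kappaB had values on both sides of 0. Of 36 tested, 1 was higher (7.18% of all genes) and 4 lower (4.15%) at the unadjusted threshold, 0 passed adjustment, 17 lay above 0 and 19 below, and the median was -0.017. The lower ones were Cxcl10 at -1.25 ± 0.28 (SE), a chemokine also induced by interferons, Lta at -0.64 ± 0.19 (SE), the lymphotoxin alpha gene, Myc at -0.60 ± 0.19 (SE), the growth regulator, and Cd40lg at -0.40 ± 0.14 (SE), the ligand of CD40. Cd40lg was dim, at -4.21 and -4.39 in wild type and -4.77 and -4.62 in the knockout, though well above background on both arrays of each genotype. Ehd1, an endocytic recycling gene, was higher by 0.38 ± 0.12 (SE).

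The partners of IkappaB-zeta in Th17 cells, a list that includes the genes of the sorted lineage, had 12 tested members, of which 6 were lower at the unadjusted threshold (4.15% of all genes), 1 was higher (7.18%) and 0 passed adjustment, with a median of -0.43. Il1r1 is in this list and in that of the receptors, and is counted as lower in both. Beside the Nfkbiz difference of -1.12, Il17a was at -3.17 ± 0.53 (SE), Il17f, whose reporter was used for the sort, at -2.01 ± 0.18 (SE), and Il6ra, the IL-6 receptor, at -0.40 ± 0.13 (SE). Il17rb, a receptor for IL-25, was the higher one. It entered the fit through the knockout arrays, since only 1 wild-type array had it well above background, so its difference of 2.79 ± 0.69 (SE) is a description and its place in the count supports nothing. This list was drawn up with several of these values known, so its direction is no independent evidence.

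**Figure D5:**
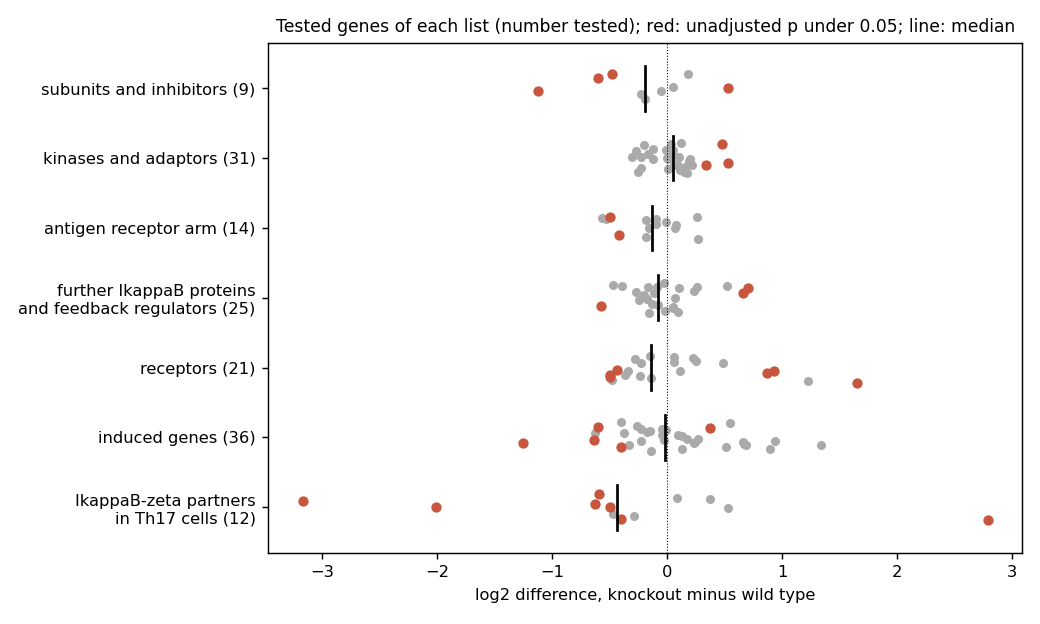
Log2 difference, knockout minus wild type, of every tested gene in the family and in 6 pathway lists, with vertical lines at the list medians. Red points have an unadjusted p under 0.05. The kinases and adaptors lie within a narrow band around 0, and the IkappaB-zeta partners reach down to -3.17. Their highest point is Il17rb, which was well above background on only 1 wild-type array.

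Marker genes of other cells were read beside these values, since several family members are also expressed by antigen-presenting cells. T cell markers had 0 of 8 tested genes past the unadjusted threshold (11.3% of all genes). Of the 8, 7 lay below 0 (47.8% of all genes), with a median of -0.10. Their summed linear signal, relative to the 75th percentile, was 751 to 802 in wild type and 730 to 736 in the knockout. The sum for 8 B cell markers was 3.07 to 4.04 and 4.51 to 4.95. Of 7 tested genes, 1 was higher (Cd79b, against 7.18% of all genes) and 2 lower (Cd22 and Ebf1, against 4.15%). Cd79b, the brightest tested gene of this list on each array, was at 0.88 and 0.24 in wild type and 1.62 and 1.82 in the knockout. Both Cd79b and Cd22 were measured inside a corner block. For 9 macrophage and dendritic cell markers the sum was 17.7 to 18.2 and 18.9 to 19.4, and Spi1 was well above background on 0 arrays. Of 7 tested genes, 0 were past the threshold (11.3% of all genes). Of these 7, 6 lay above 0 and 1 below (47.8% of all genes), with a median of 0.26. The groups did not overlap for 5 of the 7, against 47.7% of all genes. Itgam, the brightest tested gene of this list, was at 3.66 and 3.67 in wild type and 3.71 and 3.65 in the knockout. For 8 markers of CD8, gamma-delta and NK cells the sum was 16.9 to 20.2 and 13.3 to 16.6. Of 6 tested genes, 3 were higher (Klra8, Cd8a and Fcer1g), against 7.18% of all genes. Most of this sum was Klrd1 alone, at 14.9 to 18.3 in wild type and 10.51 to 13.65 in the knockout, and Ncr1 was well above background on 0 arrays. For 7 neutrophil and mast cell markers it was 1.18 to 1.30 and 1.08 to 1.27, with 0 of 3 past the threshold (11.3% of all genes). S100a8, S100a9 and Cpa3 were well above background on 0 arrays. The part of other cells in the values of the NF-kappaB genes was not tested, and in such bulk samples a smaller share of expressing cells and less RNA per cell cannot be told apart.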

How the data were processed

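The authors deposited scanner output for each single-colour Agilent array. Per the file headers it came from Feature Extraction 10.5.1.1, and the processed signal is a background-subtracted, spatially detrended intensity on a linear scale. The multiplicative detrending surface at each spot is a linear ratio, per the file headers. It had been applied (within 0.5%) to 100% of spots well above background on 3 arrays and to 4.11% on knockout array 1. The authors' deposited matrix holds log2 values. Each of its columns differed from the log2 processed signal by 1 constant (within 0.01 for 99.955% to 99.998% of probes), with a median of 5.54 in all columns. Its scale and direction are thus known, and it served as an alternative.

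Control and outlier-flagged spots were left out, spots of a probe averaged on the log2 scale, and each array shifted by its 75th percentile. Probe names and positions (mm9) are those of the files, and 2 list genes were matched through RefSeq synonyms. Genes entered the fit if 1 genotype or both had a probe well above background on each of its arrays, and the brightest such probe stood for the gene. lincRNA and unnamed probes were left out. The test was limma's (version 3.58.1, lmFit and eBayes, under R 4.3.3), with Benjamini-Hochberg adjustment over all genes and a threshold of 0.05. With 2 arrays a genotype, the smallest two-sided p of an exact permutation test is 0.333. The fit was tested on simulated data in which 200 of 19805 genes were changed by a known fold, with normally distributed noise. The share of changed genes was set and not taken from the data, and the adjusted counts depend on it. At 1-fold, which is no change, 0 of the 200 passed the adjusted threshold and 5 the unadjusted one. At 2-fold, 0 of the 200 passed the adjusted threshold and 176 the unadjusted one. At 4-fold these counts were 125 and 192. A count of 0 after adjustment therefore does not show that differences of about 2-fold were absent. The number of arrays limits the precision.

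The members and lists were chosen with earlier results of these data known. Named genes were all members, from each pathway list up to 6 genes with the smallest unadjusted p under 0.05 and groups that did not overlap, a fixed set of kinase, antigen receptor arm and IkappaB genes, and the 3 genes most like Nfkbiz. Some genes that this rule names are not reported here. Alternatives changed scaling, background correction, source of the values, filter, probe choice, prior, replicate block, surface correction, corner blocks and each array in turn.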

Additional observations from a re-analysis of the deposited data

How the results depend on the processing

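Of 16 alternatives, 7 left the differences of the 9 genes identical by construction. Of the 81 values under the other 9, 62 kept sign and side of the unadjusted threshold, 9 lost it, 3 passed it and 7 turned. Tnfaip3 was at -0.11 with median scaling, -0.016 with normexp and -0.045 with knockout array 1 corrected. With 1 array left out it ran from -0.13 to 0.24, and Nfkbib from -0.15 to 0.045. The causes were not tested. Median scaling shifted all genes to a median of -0.15, and values under it are to be read against that. At the unadjusted threshold it gave 746 higher and 2298 lower genes (24.5% higher, against 63.4% of the 1421 higher and 822 lower as reported), and medians of -0.35 for the 9 genes, -0.11 for kinases and adaptors, -0.29 for the antigen receptor arm, -0.24 for feedback regulators, -0.30 for receptors, -0.18 for induced genes and -0.59 for IkappaB-zeta partners. The share of higher genes was 51.3% with quantile scaling and 72.5% with normexp. Relative to the shift, Nfkb1 was at 0.52, Relb at -0.49, Nfkbie at -0.61 and Nfkbiz at -1.14. normexp gave 3148 genes higher, with receptors at -0.048 and IkappaB-zeta partners at -0.33. With probes averaged, 2 of the 9 genes passed the unadjusted threshold, beside 1424 higher and 766 lower among the 19805 genes fitted. Feedback regulators were then at -0.0029 and receptors at -0.011. With knockout array 1 corrected, kinases were at -0.042, the antigen receptor arm at -0.056, feedback regulators at -0.011 and receptors at 0.060. Without the corner blocks, the antigen receptor arm was at -0.096 and receptors at 0.059.

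With the replicate number as a block, 522 genes were lower at an unadjusted p under 0.05. Same-numbered arrays also shared a slide column, so this block cannot be told apart from one of column. Nothing in the labels pairs them (correlation of deviations 0.0022), so this is no paired result. With 1 array left out, the count of genes at an adjusted p under 0.05 ran from 0 to 27 (27 without wild-type array 1, where none of the 9 genes passed), the genes lower at the unadjusted threshold from 404 to 1020, and the number of the 9 genes under it from 1 to 4. Medians then ran from -0.25 to -0.11 for the 9 genes, -0.041 to 0.12 for kinases and adaptors, -0.14 to -0.084 for the antigen receptor arm, -0.10 to -0.045 for feedback regulators, -0.12 to 0.10 for induced genes, -0.14 to -0.014 for receptors and -0.45 to -0.25 for IkappaB-zeta partners. The smallest adjusted p of the 9 genes under any alternative was 0.160. Signal over background limited 1 gene, Rel.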
